A study of Mus musculus with 11 samples.

Results

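The Teashirt family (Tshz1, Tshz2 and Tshz3) and the Bcl11 family (Bcl11a and Bcl11b) make up 5 of the 54752 genes in the count tables of sorted thalamic neurons. The 5 genes were selected by name with results of these same libraries known, so their differences between nuclei are described with a standard error (SE) and carry no p-value. All 5 were found by their Ensembl identifiers and all 5 passed the filter on low counts, which kept 15907 genes. Neurons came from 3 primary sensory nuclei of the thalamus at postnatal day 0 (P0): the dorsolateral geniculate nucleus of the visual pathway (dLG, n = 4 libraries), the ventral posteromedial nucleus of the somatosensory pathway (VPM, n = 4) and the ventral division of the medial geniculate nucleus of the auditory pathway (MGv, n = 3). Every mouse was of the ICR/CD-1 strain and carried Gbx2CreER-IRES-EGFP/+::R26lsl-tdTomato/+, in which tamoxifen-induced Cre from the Gbx2 locus turns on tdTomato in early postmitotic thalamic neurons. Each library was made from cells of 4 pooled brains sorted by fluorescence, and the labels do not tie libraries to separate litters, so the p-values of other genes measure only the spread between these libraries. The labels name no untreated or reference group, and each nucleus serves as the comparison for the other 2.

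Teashirt and Bcl11 proteins are zinc finger factors that mostly repress transcription. Teashirt was first known as a fly gene of trunk identity, and its vertebrate relatives carry a homeodomain beside the zinc fingers and recruit CtBP corepressors. Tshz1 is known from olfactory bulb and intercalated amygdala neurons, and Tshz3 from cortical projection and striatal neurons. Bcl11a (also called CTIP1) is known for silencing fetal globin genes and for its part in the identity of sensory areas of the cortex. Bcl11b (CTIP2) marks subcerebral projection neurons and striatal medium spiny neurons, and is needed in developing T cells. CTIP stands for COUP-TF interacting protein, after the nuclear receptors Nr2f1 and Nr2f2 with which the Bcl11 proteins were first isolated. Both Bcl11 proteins are also subunits of the BAF chromatin remodelling complex and bind the NuRD deacetylase complex.

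Libraries held 10.2 to 23.6 M counts assigned to genes, fewest in MGv (10.2 to 13.2 M). The libraries dLG 2, VPM 3 and MGv 1 stood apart by their count of Hspa8, a constitutive heat shock protein gene, with 66 to 74 counts against 2921 to 10659 in the other 8. Where leaving out these 3 libraries moved a value of the 5 genes by more than the spread between replicates, or ended a call, the value without them is given. Against the label of thalamic neurons, all 8 pan-neuronal markers were detected, with summed levels of 9242 to 11899 CPM (counts of a gene per 1 M counts of its library), and all 8 markers of thalamic relay neurons, with 2313 to 3718 CPM summed. Markers of cells known for Bcl11 expression were low beside these sums, but not beside Bcl11b itself, which held 0.258 to 7.87 CPM. The 9 GABAergic and striatal markers summed to 3.33 to 13.2 CPM, with Slc32a1 at 0 in 10 of 11 libraries. The 6 lymphoid and microglial markers summed to 4.74 to 17.8 CPM. In any library, 3 counts correspond to 0.129 to 0.292 CPM, a limit set by counting error only.

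Sequences before the RefSeq starts of the genes are shown because paralogs of the same family differed in their pattern over the nuclei. RefSeq promoter windows (build GRCm38.p6) were matched for 4 of the 5 genes, Tshz1 being the exception, and the 250 bases before each RefSeq start were read on the strand of the gene. Capitals mark a GC box (GGGCGG, or CCGCCC on the other strand) or a CCAAT box (CCAAT, or ATTGG on the other strand), and no matches overlapped. The window of Tshz2 lies at chr2:169632259-169632508, that of Tshz3 at chr7:36697868-36698117, both on the plus strand. For Bcl11a, 225 bases are shown at chr11:24080445-24080669, plus strand, and for Bcl11b 62 bases at chr12:108003603-108003664, minus strand, since the rest of those windows lies in annotated exons. The Bcl11a bases lie inside the annotated span of the gene (chr11:24078056-24174123), not before it.
Tshz2: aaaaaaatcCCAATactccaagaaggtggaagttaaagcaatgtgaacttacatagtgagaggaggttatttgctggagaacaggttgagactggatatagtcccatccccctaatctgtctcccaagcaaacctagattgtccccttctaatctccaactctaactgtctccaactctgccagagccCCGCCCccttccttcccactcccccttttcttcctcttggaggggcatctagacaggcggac
Tshz3: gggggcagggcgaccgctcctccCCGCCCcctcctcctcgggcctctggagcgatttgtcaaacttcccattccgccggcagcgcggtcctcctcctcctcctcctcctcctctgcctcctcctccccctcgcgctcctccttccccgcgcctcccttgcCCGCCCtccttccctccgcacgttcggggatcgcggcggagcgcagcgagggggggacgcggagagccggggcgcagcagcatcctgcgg
Bcl11a: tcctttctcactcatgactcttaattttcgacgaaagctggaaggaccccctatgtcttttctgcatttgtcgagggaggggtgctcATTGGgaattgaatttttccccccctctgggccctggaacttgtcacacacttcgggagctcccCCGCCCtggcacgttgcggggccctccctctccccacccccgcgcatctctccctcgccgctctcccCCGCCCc
Bcl11b: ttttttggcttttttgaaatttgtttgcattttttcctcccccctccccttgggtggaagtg

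Over the full 250 bases, the Tshz3 window was the richest of the 4 in G and C, at 74% with 27 CpG dinucleotides, and the Bcl11a window followed at 62% with 16. The Tshz2 window had 48.8% and 2 CpG, and the Bcl11b window 44.8% and 9. Over 32851 windows of the same length the medians were 52.4% and 6. A GC box was found at 2 places in Tshz3, at 2 in Bcl11a, at 1 in Tshz2 and not in Bcl11b, and 32.7% of all windows held it. A CCAAT box was found once in Tshz2 and once in Bcl11a (33.9% of all windows). Neither TATAAA (12.4% of windows) nor the nuclear receptor motif AGGTCA (14.0%), searched on both strands, was found in any of the 4. These matches describe the letters of each window and were not related to any binding measurement.

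Levels of the 5 genes differed widely. Per exon length, in CPM divided by exon length in kilobases (RPKM), the Teashirt genes summed to 10.9 ± 2.99 (SD, n = 4) in dLG, 18.9 ± 5.09 (n = 4) in VPM and 44.7 ± 5.45 (n = 3) in MGv. The Bcl11 genes summed to 3.90 ± 1.49, 7.27 ± 1.77 and 31.0 ± 4.08 RPKM. In both families the summed level was highest in every MGv library. The Teashirt sums include Tshz2, 67.5% of whose exon bases are shared with other annotated genes. In these bulk libraries, fewer cells that express a gene and less of its RNA per cell cannot be told apart.

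**Figure D1:**
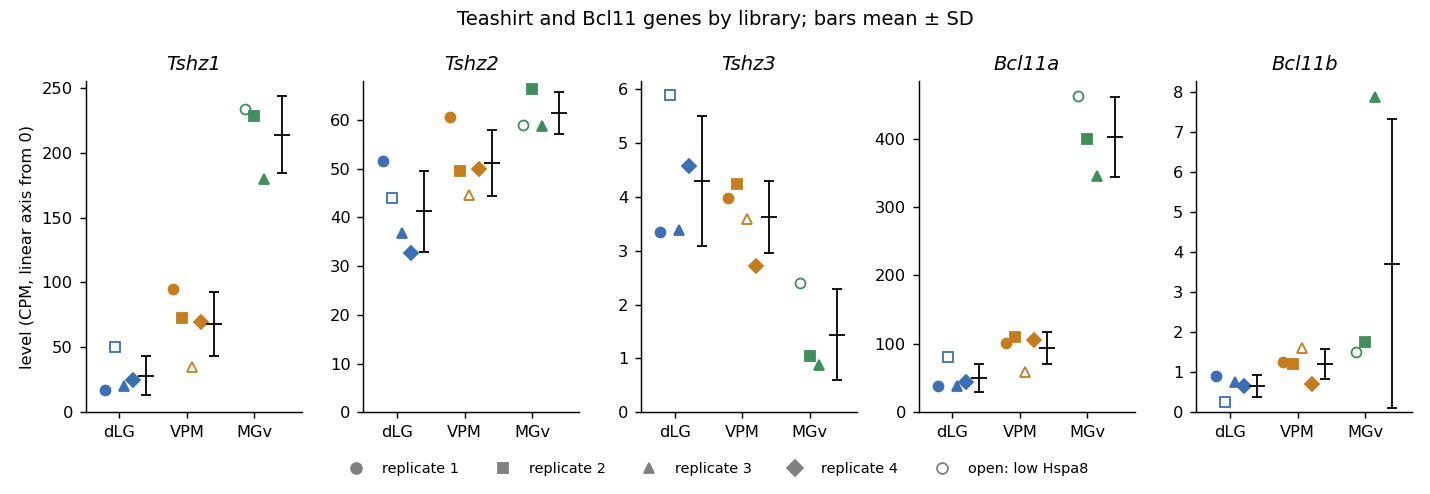
Level of each gene in the 11 libraries, in CPM on a linear axis that starts at 0 and differs between panels. Symbols are libraries by replicate number, open symbols the 3 libraries with low Hspa8, and black bars the mean ± SD of each nucleus. Tshz1 and Bcl11a were highest in all 3 MGv libraries and Tshz3 lowest there, while the MGv mean of Bcl11b rests on 1 library at 7.87 CPM.

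Tshz1 (ENSMUSG00000046982) lies on the minus strand at chr18:84011627-84087706. Its level in the 4 dLG libraries was 17.5, 50.3, 20.5 and 24.7 CPM. In the 4 VPM libraries it was 94.9, 72.9, 34.9 and 69.5 CPM. The 3 MGv libraries, at 234, 228 and 180 CPM, lay above every other library, whereas dLG 2 lay above VPM 3, so that these nuclei overlapped. The means were 28.3 ± 15.0, 68.1 ± 24.8 and 214 ± 29.8 CPM. Tshz1 was 7.55-fold higher in MGv than in dLG (log2 fold change 2.92, SE 0.35) and 3.14-fold higher in MGv than in VPM (1.65, SE 0.34). It was 2.40-fold higher in VPM than in dLG (1.27, SE 0.32). Both libraries that made the last groups overlap had low Hspa8. Without the 3 such libraries, dLG held 17.5 to 24.7 CPM and VPM 69.5 to 94.9 CPM, and the log2 difference, dLG minus VPM, was -1.91 (SE 0.17).

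Tshz2 (ENSMUSG00000047907) lies on the plus strand at chr2:169633013-170071816 and varied least of the 5. It held 51.6, 43.9, 36.8 and 32.7 CPM in dLG. It held 60.6, 49.5, 44.5 and 49.9 CPM in VPM. In MGv it held 59.0, 66.3 and 58.7 CPM. The order of the means was the same as for Tshz1 (41.2 ± 8.28, 51.1 ± 6.78 and 61.3 ± 4.29 CPM), but neighbours in that order overlapped, and only dLG and MGv were apart, by 1.49-fold (log2 0.57, SE 0.17). VPM exceeded dLG by 0.31 (SE 0.16) and MGv exceeded VPM by 0.26 (SE 0.17) on the log2 scale. Of the exon bases of Tshz2, 67.5% are shared with other annotated genes, mostly with Gm26883, a long noncoding RNA gene on the opposite strand. How reads in shared bases were assigned is not given in the sources used here, so the level of Tshz2 is uncertain. Gm26883 itself held 1.00 to 2.62 CPM and did not pass the test in any contrast. Since 99.2% of its own exon bases are shared with other genes, this low level does not show that Tshz2 was counted in full.

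Tshz3 (ENSMUSG00000021217, chr7:36698118-36773553, plus strand) was the lowest Teashirt gene per exon length and had the opposite order of nuclei. Its level was 3.35, 5.89, 3.38 and 4.58 CPM in dLG. It was 3.99, 4.24, 3.60 and 2.71 CPM in VPM. In MGv it was 2.40, 1.05 and 0.875 CPM, below every library of the other nuclei and based on 32, 12 and 9 counts. The means were 4.30 ± 1.20, 3.63 ± 0.670 and 1.44 ± 0.836 CPM. Tshz3 was 2.93-fold higher in dLG than in MGv (log2 1.55, SE 0.40) and 2.48-fold higher in VPM than in MGv (1.31, SE 0.40). dLG and VPM overlapped and differed by less than 1 SE (0.24, SE 0.34). The highest MGv value belonged to MGv 1, which had low Hspa8. Without it the differences from MGv were 2.15 (SE 0.42) for dLG and 1.91 (SE 0.42) for VPM.

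The makeup of the Teashirt family differed between nuclei. Per exon length, Tshz1 gave 29.3% to 56.1% of the summed Teashirt level in the dLG libraries, with a mean of 42.7% ± 11.2 (SD, n = 4). It gave 60.2% ± 7.95 (n = 4) in VPM and 81.7% ± 1.68 (n = 3) in MGv. Tshz2 gave 50.1% ± 11.9, 36.1% ± 6.90 and 17.8% ± 1.93 in the same order. In dLG, Tshz1 was at 0.452 to 1.52 times the level of Tshz2, whereas in MGv it was 4.07 to 5.27 times higher. Tshz3 gave 7.27% ± 1.29, 3.73% ± 1.22 and 0.580% ± 0.293. These shares depend on the length used. With the longest annotated transcript in place of all exons, Tshz2 came to 59.2% in dLG, 45.3% in VPM and 24.2% in MGv, and Tshz1 to 34.7%, 51.4% and 75.2%. The order of the nuclei was kept. The shares also rest on the uncertain level of Tshz2, with 67.5% of its exon bases shared with other genes, against 0% for Tshz1 and Tshz3. How far this moves the shares was not tested.

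**Figure D2:**
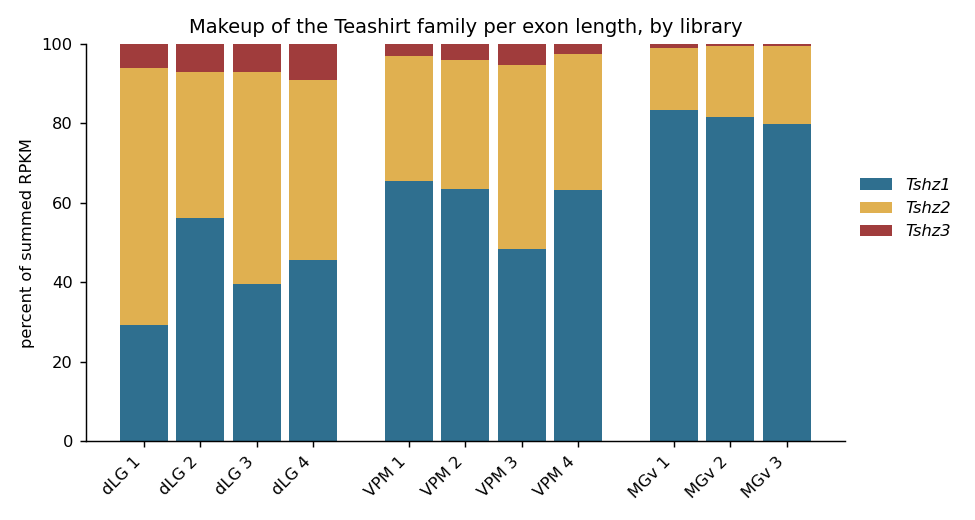
Percent of the summed RPKM of the 3 Teashirt genes given by each gene, 1 bar for each of the 11 libraries, on an axis from 0 to 100. Tshz1 took 79.9% to 83.3% in the MGv libraries and 29.3% to 56.1% in the dLG libraries, and Tshz3 stayed under 1% in MGv. The level of Tshz2 in these sums is uncertain, since most of its exon bases are shared with other genes.

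Bcl11a (ENSMUSG00000000861, chr11:24078056-24174123, plus strand) showed, with Tshz1, the largest differences between nuclei among the 5. The dLG libraries held 39.0, 80.2, 38.3 and 43.8 CPM. The VPM libraries held 101, 110, 58.6 and 106 CPM. The MGv libraries held 463, 400 and 345 CPM, all above 3 times the highest value elsewhere. The means were 50.3 ± 20.1, 93.8 ± 23.8 and 403 ± 58.7 CPM, so that MGv exceeded dLG 7.99-fold (log2 3.00, SE 0.27) and VPM 4.29-fold (2.10, SE 0.27). VPM exceeded dLG 1.86-fold (0.90, SE 0.25), with overlap between dLG 2 and VPM 3. Without the 3 libraries with low Hspa8, dLG held 38.3 to 43.8 CPM and VPM 101 to 110 CPM, and the log2 difference, dLG minus VPM, was -1.38 (SE 0.11). Of its exon bases, 2.40% are shared with 4930538E20Rik on the other strand, which held at most 0.68 CPM.

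Bcl11b (ENSMUSG00000048251, chr12:107910403-108003602, minus strand) was low in dLG and VPM. It held 0.913, 0.258, 0.763 and 0.668 CPM in dLG, from 6 to 15 counts. It held 1.25, 1.21, 1.61 and 0.713 CPM in VPM. In MGv it held 1.50, 1.76 and 7.87 CPM. The last library, MGv 3, held 81 counts and was the highest of all 11, whereas MGv 1 and MGv 2 lay near the upper end of VPM. The means were 0.650 ± 0.281, 1.20 ± 0.370 and 3.71 ± 3.61 CPM. MGv exceeded dLG by 2.51 (SE 0.62) and VPM by 1.62 (SE 0.60) on the log2 scale, but without MGv 3 these fell to 1.33 (SE 0.56) and 0.44 (SE 0.56). MGv 3 was also the library with most Neurod6, a gene of cortical excitatory neurons, at 5.15 CPM against 0 to 0.977 CPM in the other 10, while Tbr1, Emx1 and Fezf2, other genes of cortical neurons, were at 0 in that library. Drd1, from the striatal list, and Aif1, from the microglial list, were also highest in MGv 3, at 8.84 and 16.3 CPM. Elsewhere they held at most 8.23 and 8.83 CPM. Gad1, Six3 and Dlx5, from the striatal list, were highest in MGv 3 too, at 2.72, 0.486 and 0.389 CPM. Their highest values elsewhere were 2.38, 0.303 and 0.372 CPM, with Six3 and Dlx5 near the floor. Gad2, C1qa and Cx3cr1 held 0.778, 0.875 and 0.583 CPM in MGv 3 and were highest in other libraries. Slc32a1, Dlx1, Dlx2, Ppp1r1b, Ptprc, Cd3e and Cd79a were at 0 in MGv 3. The part of other cell types in its Bcl11b level was not tested. For Bcl11b, VPM exceeded dLG by 0.88 (SE 0.58). Per exon length Bcl11a exceeded Bcl11b 22.4-fold to 192-fold in single libraries, and Bcl11a gave 97.6% ± 1.37, 97.7% ± 1.39 and 98.4% ± 1.71 of the summed Bcl11 level in dLG, VPM and MGv.

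**Figure D3:**
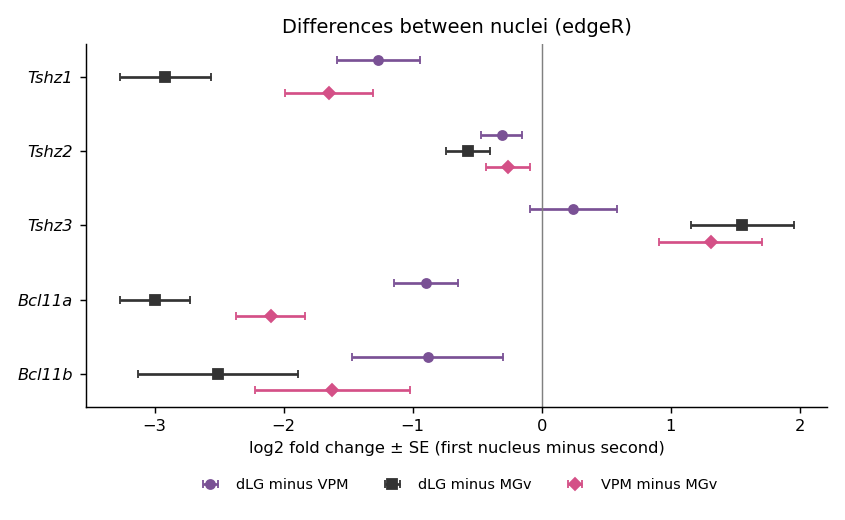
Log2 fold change ± SE of each gene for the 3 contrasts of nuclei, first nucleus minus second, from edgeR. Points left of 0 are higher in the second nucleus. Tshz1 and Bcl11a lie near -3 for dLG minus MGv (-2.92 and -3.00), Tshz2 lies within 0.6 of 0 in all contrasts, and Tshz3 lies to the right of 0.

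Between dLG and VPM, 2 of the 5 genes (Tshz1 and Bcl11a) were called at an adjusted p under 0.1 by edgeR's quasi-likelihood test, where 10.7% of all genes tested were called. Between dLG and MGv all 5 were called (16.1% of all genes), and between VPM and MGv 4 were called (19% of all genes), Tshz2 being the exception. Libraries of the compared nuclei did not overlap for 0, 5 and 3 of the genes, against 14.6%, 23.8% and 25.1% of all genes. Since these contrasts were in view when the genes were selected, nothing is read from these counts. Alternative fits use the same libraries and the threshold of 0.1, so they show only how far a call depends on the processing. The calls of Tshz1 held in 22 of 22 alternatives in each contrast. That of Bcl11a between dLG and VPM was lost without dLG 1, dLG 3, dLG 4 or VPM 2 (-0.80, -0.79, -0.84 and -0.81, dLG minus VPM). The call of Tshz2 between dLG and MGv was lost without dLG 3, dLG 4 or MGv 2 (-0.52, -0.48 and -0.52), and that of Tshz3 between VPM and MGv without MGv 2, MGv 3 or VPM 2 (1.13, 1.06 and 1.23) and with counts thinned to the smallest library (1.09). Bcl11b lost its call between dLG and MGv without MGv 3 (-1.33). Between VPM and MGv its call held in 10 of 21 alternatives, and was lost without MGv 3 (-0.44) and without any 1 of dLG 1, dLG 3, dLG 4, VPM 1, VPM 2 and VPM 4 (-1.63 to -1.44), with voom (-0.94), with only the nuclei compared in the fit (-1.61), with thinned counts (-1.16) and with a replicate block (-1.24). The direction of every gene in every contrast was kept in all 324 alternative values.

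Markers of thalamic relay neurons, of other cell types and of dissociation also moved with the nuclei. Of the 8 relay markers, 4 were called higher in dLG than in MGv and 4 higher in MGv. Between VPM and MGv, 3 were called higher in VPM and 4 in MGv. Between dLG and VPM, 3 were called higher in dLG and 1 in VPM. Gbx2, whose locus drives the Cre, was 10.3-fold higher in MGv than in dLG and 8.62-fold higher than in VPM. Of the exon bases of Gbx2, 43.5% are shared with other genes. The 5 habenular markers summed to 16.8 to 36.6 CPM in MGv, against 2.92 to 8.03 CPM in dLG and 4.20 to 12.1 CPM in VPM. Of the 3 tested, Gng8 was called higher in MGv than in both other nuclei, at 11.7 to 34.3 CPM in MGv against at most 9.74 CPM elsewhere, and Nr4a2 higher in MGv (2.14 to 6.01 CPM) than in VPM (0.519 to 1.86 CPM). Pou4f1, Tac2 and Gpr151 lay under 1 CPM in every library. The 7 astrocyte markers summed to 57.0 to 192 CPM, with overlap among the nuclei, but single members moved with them. Slc1a3, the glutamate transporter of astrocytes and radial glia, held 45.5 to 90.3 CPM in MGv and 1.10 to 17.9 CPM in dLG and VPM (11.3-fold against dLG, adjusted p = 0.00444, and 10.1-fold against VPM, adjusted p = 0.00626, edgeR), and was highest of the dLG libraries in dLG 2, as were Tshz1 and Bcl11a. Aqp4 was called higher in MGv (0.486 to 1.49 CPM) than in VPM (0 to 0.278 CPM), and Aldoc lower in dLG (2.10 to 11.8 CPM) than in VPM (27.9 to 46.6 CPM) and MGv (16.6 to 19.5 CPM). Fabp7, Aldh1l1 and Gja1 were called in no contrast. Fabp7 had its lowest mean in MGv, at 35.3 CPM against 65.5 in dLG and 64.5 in VPM. It was lowest of the dLG libraries in dLG 2, at 29.3 CPM against 50.4 to 122 CPM.

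The 6 markers of dividing progenitors summed to 149.6 to 186 CPM in dLG, 78.2 to 88.3 CPM in VPM and 90.7 to 115 CPM in MGv. Most of this was Sox2, called higher in dLG than in both other nuclei, while Nes was called 2.74-fold higher in MGv than in dLG and 2.05-fold higher than in VPM, and Pax6 was called higher in VPM than in MGv. Mki67 and Top2a, genes of cycling cells, reached at most 0.902 and 2.64 CPM. The 6 lymphoid and microglial markers summed to 9.39 to 17.8 CPM in MGv, 4.74 to 9.01 CPM in dLG and 7.88 to 11.4 CPM in VPM, and Aif1 was called higher in MGv than in dLG. Of the 3 tested, the others, C1qa and Cx3cr1, were called in no contrast. Their means were lowest in MGv, at 0.617 and 0.399 CPM, and Ptprc was at 0 in every MGv library. Endothelial and blood markers reached 465 CPM in dLG 3, nearly all from the haemoglobin genes Hbb-bs and Hba-a1, and at most 11.2 CPM in the other libraries. The 9 genes of the response to dissociation summed to 497 to 619 CPM in MGv, 387 to 560 CPM in dLG and 214 to 291 CPM in VPM, with 4 called higher in dLG than in VPM and 5 higher in MGv than in VPM. The part of any of these markers in the Teashirt and Bcl11 differences was not tested.

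Tshz1 and Bcl11a, on different chromosomes, had similar patterns over the libraries. Likeness was measured as the root-mean-square difference of log2 CPM over the 11 libraries after centring each gene on its mean, among the 11038 genes whose mean reached 5 CPM in 1 nucleus or more. Bcl11a was the gene nearest to Tshz1, and Tshz1 the gene nearest to Bcl11a, at 0.266. The measure runs over all 11 libraries, so it includes the differences between nuclei that were known when the genes were selected. Next came Sema3f (0.344) and Tenm1 (0.360) for Tshz1, and Spats2l (0.345) and Tenm1 (0.352) for Bcl11a. Sema3f encodes a secreted axon guidance protein and Tenm1 a teneurin adhesion protein. Tenm1 held 85.7 ± 29.7 CPM in dLG, 172 ± 51.2 in VPM and 494 ± 69.3 in MGv. The ratio of Bcl11a to Tshz1 in CPM, not scaled for length, stayed between 1.06 and 2.23 over the 11 libraries, while each gene alone ranged over more than 10-fold.

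**Figure D4:**
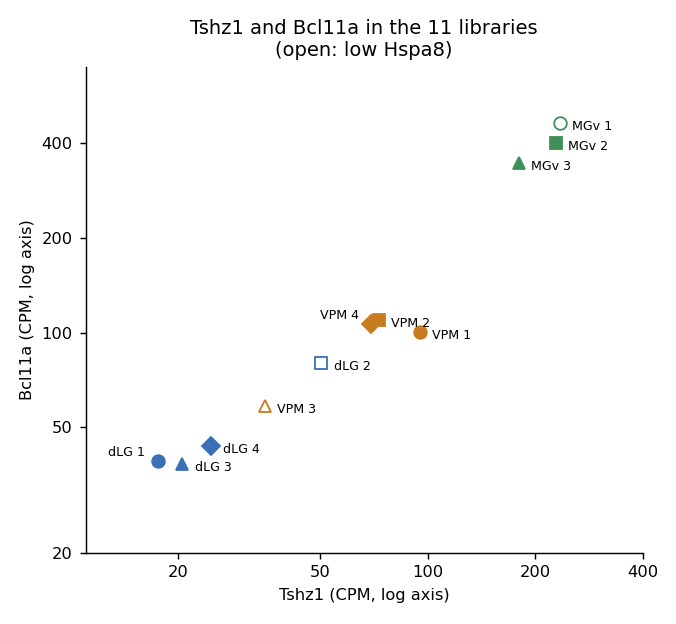
Tshz1 against Bcl11a in CPM, both on log axes, 1 symbol for each library, coloured by nucleus and open where Hspa8 was low. The 3 MGv libraries lie at the upper right, and dLG 2 (50.3 and 80.2 CPM) and VPM 3 (34.9 and 58.6 CPM) lie between the other dLG and the other VPM libraries for both genes.

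Within nuclei the same 2 genes also deviated together in the libraries with low Hspa8. In dLG 2 both were the highest of the dLG libraries, and in VPM 3 both were the lowest of the VPM libraries. The 3 MGv libraries ranked alike for both, with MGv 1 highest and MGv 3 lowest. Correlations of these deviations were also computed for the 10 pairs of members, and they were left out after their values were known because each nucleus held only 3 or 4 libraries. Some other thalamic genes also stood apart in these libraries, and some did not. Tcf7l2, a factor of thalamic and habenular neurons, was at 696 CPM in dLG 2 against 382 to 406 CPM in the other dLG libraries, and at 1072 to 1286 CPM in MGv. Rora, a nuclear receptor of sensory thalamus, was at 849 CPM in dLG 2 against 1334 to 1581 CPM in the other dLG libraries, and at 471 to 590 CPM in MGv. In VPM 3 the levels were 468 CPM for Tcf7l2 and 560 CPM for Rora, against 542 to 563 and 712 to 828 CPM in the other VPM libraries. Tcf7l2 and Rora were picked from the 8 relay markers with their values in view. Lhx9, from the same list, was at 531 CPM in dLG 2, inside the 475 to 626 CPM of the other dLG libraries. Of the same list, Gbx2, Foxp2 and Lhx2 were highest of the dLG libraries in dLG 2, at 51.6, 372 and 26.9 CPM. The other dLG libraries held 14.2 to 29.4, 223 to 241 and 13.5 to 17.7 CPM. Slc17a6 and Lef1 were lowest in dLG 2, at 486 and 326 CPM against 534 to 582 and 338 to 388 CPM. In VPM 3 Gbx2 was at 27.3 CPM, against 27.3 to 45.7 CPM in the other VPM libraries. Foxp2, Slc17a6 and Lef1 were lowest of the VPM libraries in VPM 3, and Lhx2 was highest.

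The nearest patterns to the other 3 genes were less close or belonged to genes that varied little. Those nearest to Tshz2 were Cd99l2 (0.128), Ica1 (0.129) and Chga (0.138), whose means stepped up from dLG over VPM to MGv, as with Chga at 184 ± 20.6, 225 ± 28.3 and 268 ± 17.9 CPM. Those nearest to Tshz3 were Lnx1 (0.325), an E3 ubiquitin ligase gene, Id4 (0.340), an inhibitor of basic helix-loop-helix factors, and Ppp4r4 (0.344). Id4 held 602 ± 265 CPM in dLG, 429 ± 77.7 in VPM and 235 ± 121 in MGv. Bcl11b had no close match, with Ryr2 nearest at 0.534, followed by Chst15 (0.563) and Plcxd3 (0.567). A small value is easier to reach for a gene that varies little, so the numbers do not rank the 5 genes.

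The COUP-TF genes, whose products bind Bcl11 proteins, differed between nuclei, with Nr2f1 lowest in MGv and Nr2f2 lowest in dLG. Nr2f1 held 192 to 226 CPM in dLG (median 224), 268 to 367 CPM in VPM (median 285) and 82.9 to 86.6 CPM in MGv (median 86.5), with no overlap between any pair of nuclei. It was lower in MGv than in dLG (log2 1.34, SE 0.14, adjusted p = 3.02e-05, edgeR) and than in VPM (1.82, SE 0.14, adjusted p = 2.85e-06), and higher in VPM than in dLG (0.48, SE 0.12, adjusted p = 0.0310). Each of these calls held in 22 of 22 alternatives. The nucleus with most Bcl11a was the nucleus with least Nr2f1, but both genes had a higher mean in VPM than in dLG. Nr2f2 was near the floor in dLG, at 0.218 to 1.85 CPM, against 21.6 to 42.1 CPM in VPM and 17.6 to 34.4 CPM in MGv. It was 35.9-fold higher in VPM than in dLG (log2 5.16, SE 0.47, adjusted p = 1.72e-05) and 25.0-fold higher in MGv than in dLG (4.64, SE 0.48, adjusted p = 3.02e-05). VPM and MGv overlapped and did not pass the test for Nr2f2 (0.52, SE 0.41, adjusted p = 0.455). Nr2f6 held 25.0 to 41.2 CPM and passed in no contrast, and 54.4% of its exon bases are shared with other genes.

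**Figure D5:**
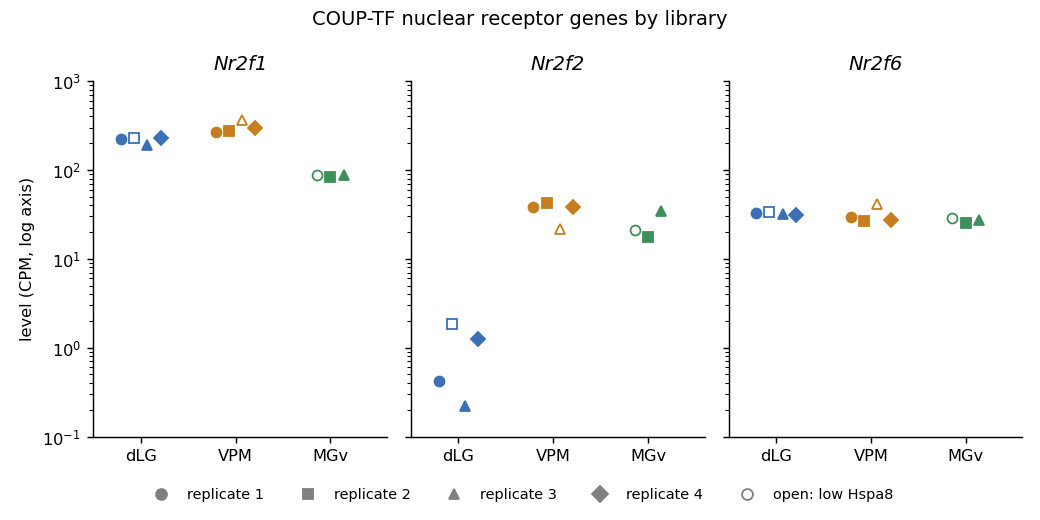
Level of the 3 COUP-TF genes in the 11 libraries, in CPM on a shared log axis, with symbols by replicate number and open symbols for low Hspa8. Nr2f1 lay at 82.9 to 86.6 CPM in MGv and above 190 CPM elsewhere, Nr2f2 lay under 2 CPM in dLG and above 17 CPM elsewhere, and Nr2f6 overlapped in most pairs of nuclei.

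All 26 BAF genes were tested, and 4 of them were called between dLG and VPM, 2 in each direction. The share, 15.4%, stood beside 10.7% of all genes, and their median log2 difference was 0.13 beside 0.00 for all genes. Dpf3, a subunit of BAF in neurons and muscle that reads acetylated histones, was the most changed. It held 7.26 to 12.8 CPM in dLG, 1.24 to 2.28 CPM in VPM and 0.977 to 2.11 CPM in MGv. It was 5.17-fold higher in dLG than in VPM (adjusted p = 0.000279, edgeR) and 6.24-fold higher than in MGv (adjusted p = 0.000259). Smarca2, the BRM ATPase, was 1.80-fold higher in dLG than in VPM (adjusted p = 0.00642). Bcl7a, an accessory subunit, was 1.93-fold lower in dLG than in VPM (adjusted p = 0.00167). The remaining call, Arid1b, was 1.49-fold lower in dLG (adjusted p = 0.0816), a call lost with total counts (-0.49, dLG minus VPM) and without any 1 of dLG 1, dLG 2, dLG 3, VPM 1, VPM 2 and VPM 4 (-0.60 to -0.50).

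Between dLG and MGv, 5 BAF genes were called (19.2% beside 16.1% of all genes), 4 of them higher in dLG, with a median log2 difference over the list of -0.09 beside 0.02. After Dpf3, the largest changes among the called genes were in Ss18, 2.85-fold higher in dLG (adjusted p = 0.0249), and Dpf1, the neuronal paralog of Dpf3, 1.55-fold higher in MGv (adjusted p = 0.0195). Ss18 lost this call without MGv 1 (1.21 on the log2 scale), and Dpf1 without MGv 3 (-0.46). Smarca2 and Smarce1 were also called, but the call of Smarca2 was lost without dLG 3, dLG 4 or MGv 1 (0.45, 0.57 and 0.44) and without the 3 libraries with low Hspa8 (0.48). Between VPM and MGv, 5 were called (19.2% beside 19% of all genes), 3 of them higher in VPM, with a median of -0.17 beside 0.02. Arid1b was higher in VPM (log2 0.93, SE 0.21, adjusted p = 0.00921), Dpf1 1.83-fold higher in MGv (adjusted p = 0.00311) and Ss18 2.26-fold higher in VPM (adjusted p = 0.0709). That of Ss18 was lost without MGv 1, MGv 2, VPM 2 or VPM 4 (0.88, 1.06, 1.06 and 1.15). Bcl7a and Smarcb1 made up the rest. Arid1b, Smarca2, Smarce1, Bcl7a and Smarcb1 are named for those contrasts where they were not among the 3 largest called changes, after their values were seen.

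Of the 14 NuRD genes, all tested, 2 were called in each contrast, a share of 14.3% beside 10.7%, 16.1% and 19% of all genes between dLG and VPM, dLG and MGv, and VPM and MGv. Mbd3, which bridges the deacetylase and remodelling modules, was lowest in dLG, at 63.8 to 79.7 CPM, and held 82.7 to 109 CPM in VPM and 117 to 123 CPM in MGv. It was 1.37-fold higher in VPM than in dLG (adjusted p = 0.0369, edgeR) and 1.69-fold higher in MGv than in dLG (adjusted p = 0.00162). The first of these was lost without VPM 1 (-0.41) and with total counts in place of TMM scaling (-0.36). Hdac2, a catalytic subunit, was 1.57-fold higher in VPM than in dLG (adjusted p = 0.0624), a call lost with total counts (-0.56, dLG minus VPM) and without any 1 of the same 6 libraries as for Arid1b (-0.69 to -0.52). Gatad2a, a scaffold subunit, was lower in MGv than in VPM, 1.63-fold (adjusted p = 0.0151), and than in dLG, 1.44-fold (adjusted p = 0.0630). The second call was lost in 9 of 22 alternatives, among them each fit without dLG 1, dLG 4 or an MGv library (0.46 to 0.57) and the fit without the 3 libraries with low Hspa8 (0.52). Rbbp7, a histone-binding subunit, was 1.41-fold lower in MGv than in VPM (adjusted p = 0.0131). The median log2 differences of the list were -0.13, 0.02 and 0.10 for the contrasts dLG minus VPM, dLG minus MGv and VPM minus MGv, beside 0.00, 0.02 and 0.02 over all genes.

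The CtBP corepressors of Teashirt proteins passed the test in no contrast. Ctbp1 held 54.5 to 132 CPM, with all nuclei overlapping. Ctbp2 held 0.0609 to 1.65 CPM, from 1 to 24 counts. Its VPM libraries (0.124 to 0.371 CPM) lay below its MGv libraries (0.439 to 1.65 CPM), 3.14-fold on the fitted means, without passing the test (log2 1.65, SE 0.85, adjusted p = 0.230, edgeR).

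Genes next to the 5 did not all share their patterns. Zadh2, a reductase gene that starts 357 bases from Tshz1 on the opposite strand, held 1.58 to 3.84 CPM in dLG, 5.40 to 15.1 CPM in VPM and 7.99 to 11.9 CPM in MGv. Like Tshz1 it was lower in dLG than in VPM (log2 1.75, SE 0.35, adjusted p = 0.00696, edgeR) and MGv (1.77, SE 0.37, adjusted p = 0.00578), but VPM and MGv did not pass the test for it (0.03, SE 0.36). Beside Bcl11a, at 3002 bases, A830031A19Rik held 0.902 to 2.02 CPM in MGv and at most 0.238 CPM in dLG and VPM. On the other side, 5730522E02Rik held 9.14 to 12.8 CPM in MGv and 2.50 to 4.90 CPM in dLG and VPM (adjusted p = 0.00583 for dLG and 0.000631 for VPM against MGv), at a distance of 1428640 bases. Both neighbours of Bcl11a were thus highest in MGv.

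Beside Bcl11b, Setd3, a histidine methyltransferase gene, differed by at most 0.07 on the log2 scale, and 3110018I06Rik was at 0 in all libraries. Of the neighbours of Tshz3, Zfp507 passed in no contrast, and Zfp536 held 1.88 to 3.42 CPM in MGv against 0 to 0.371 CPM in VPM (adjusted p = 0.0107), a direction opposite to that of Tshz3, and 0.109 to 1.98 CPM in dLG. Zfp217, beside Tshz2, and Zfp516, on the far side of Tshz1, held at most 1.33 and 2.25 CPM and passed in no contrast, and Gm11011 was at 0.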

How the data were processed

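RNA-seq libraries of sorted P0 thalamic neurons were used as deposited. The authors trimmed reads with cutadapt 2.3 and Trim Galore 0.6.1, aligned them to mm10 (GRCm38) with STAR 2.7.0d and counted them per Ensembl gene with featureCounts (Subread 1.6.4). The deposited values are raw counts, 1 file for each library, not normalized or filtered. Reads were single-end, 50 bases long, from cDNA of a SMARTer kit that does not mark strand. The strand setting and the treatment of multiply mapped or shared reads are not given in the sources used here. The labels name Nextera XT for library construction and the study's methods NEBNext. Depth was 10.2 to 23.6 M counts per library.

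The members and the gene lists were chosen with earlier results of these data known. Groups and replicate numbers came from sample titles. Symbols, positions and exon lengths came from GENCODE M21 (54723 of 54752 identifiers matched), and coordinates are 1-based. All 11 libraries entered 1 model with 3 group means in edgeR 4.0.16 (R 4.3.3): filterByExpr, TMM scaling, quasi-likelihood F test, two-sided, Benjamini-Hochberg adjustment over 15907 genes, threshold 0.1. Biological variation between libraries (common coefficient) was 28.2%. The SE of a log2 fold change was its size over the root of its F statistic. CPM is TMM-scaled, log2 CPM used a prior count of 2, and RPKM used the length of all exons joined. The model was tested on simulated data.

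Libraries of a nucleus were compared pairwise by a chi-square test of their counts, and all 15 pairs differed by more than sampling noise (12.8 to 115 per degree of freedom). Libraries with the same replicate number did not deviate together on average. Named genes were the 5 members, the 3 genes most like each, all COUP-TF and CtBP genes, up to 3 called BAF and NuRD genes per contrast with the largest change, the nearest coding neighbours, genes that overlap the exons and defining markers. The list of cortical markers is not reported here in full. Hspa8, Neurod6, Tcf7l2, Rora, Gbx2, Lhx9, Foxp2, Lhx2, Slc17a6, Lef1 and the markers of other cell types were picked out with their values in view. Each fit was repeated with limma 3.58.1 (voom, quality weights) or DESeq2 1.42.0 as the test, with scaling by DESeq2 size factors or by total counts, with a minimum of 10 counts per library or without any filter, with replicate number as a block, with only the nuclei compared, with a covariate for or omission of the libraries with low Hspa8, with counts thinned to the smallest library, with an adjusted p under 0.05 and with each library left out.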

Additional observations from a re-analysis of the deposited data

Results flagged for a closer look

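In groups of 4 libraries, 5 of 50 values lay farther from the rest than Dixon's 95% critical value allows, where chance gives about 1 in 20 groups. Bcl11a stood at 80.2 CPM in dLG replicate 2, against 38.3 to 43.8 CPM in the other dLG libraries. The share of Tshz1 in the Teashirt family per exon length was 48.4% in VPM replicate 3, against 63.2% to 65.6% in the other VPM libraries. Bcl7a stood at 57.6 CPM in VPM replicate 3, against 81.4 to 84.4 CPM. These 3 values come from libraries with low Hspa8. Nr2f1 stood at 192 CPM in dLG replicate 3, against 222 to 226 CPM, and Arid1b at 27.1 CPM in dLG replicate 4, against 19.0 to 19.7 CPM. The part of library quality in these values was not tested.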

How the results depend on the processing

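All 324 alternative log2 fold changes of the 5 genes kept their direction, and 316 moved by less than 1 SD of log2 CPM between replicate libraries. Without the libraries with low Hspa8, Tshz1 came to -1.91 and Bcl11a to -1.38 for dLG minus VPM, and Tshz3 to 1.89 for VPM minus MGv, and 2618 genes were called between dLG and VPM in place of 1704. Thinned counts gave 0.64 for Tshz3, dLG minus VPM. Leaving out single libraries moved Tshz3 between 1.30 and 2.15 for dLG minus MGv and between 1.06 and 1.91 for VPM minus MGv, both highest without MGv 1, and Bcl11b between -2.89 and -1.33 and between -2.00 and -0.44, both nearest 0 without MGv 3. Genes called between dLG and VPM came to 4414 with voom, and leaving out single libraries gave 1093 to 2223, fewest without VPM 2 (1093) and VPM 1 (1101). Partner genes called there were 8, with 15 by voom and 5 to 10 when leaving out single libraries, fewest without VPM 1. With the longest transcript as the length, the shares came to 51.4% (VPM) and 75.2% (MGv) for Tshz1, and 45.3% and 24.2% for Tshz2. The cause was not tested.

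Of 973 alternative values of single partner genes, 10 changed direction, all in genes that were not called. Nr2f6 came to -0.0055 and -0.0032 (dLG minus VPM) without VPM 2 and VPM 4 (highest 0.23), Ctbp1 to 0.040, 0.018 and 0.054 (dLG minus VPM) without dLG 1, dLG 3 and VPM 1 (lowest -0.35), and to 0.11, 0.18 and 0.068 (VPM minus MGv) with voom, without the libraries with low Hspa8 and without MGv 1 (lowest -0.36), and Ctbp2 to 0.20 and 0.72 (dLG minus MGv) without dLG 1 and MGv 3 (lowest -0.49). Requiring 10 counts in every library left no value for Tshz3 and Bcl11b.

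Libraries share replicate numbers, but same-numbered libraries correlated by 0.016 on average over 10 pairs (-0.20 to 0.48) and others by -0.0050 over 30 (-0.31 to 0.27). The highest value of all thus belonged to a same-numbered pair. Values over 0.1 were found in 2 same-numbered pairs and in 6 others. With the replicate number as a block, 1464, 2169 and 2695 genes were called between dLG and VPM, dLG and MGv, and VPM and MGv, against 1704, 2562 and 3016 without it. The block ended the call of Bcl11b between VPM and MGv (-1.24) and of Gatad2a between dLG and MGv, added that of Hdac2 between dLG and MGv, and changed no other call among the 5 genes and the 15 partner genes followed through all alternatives. Counts were few for Bcl11b (6 to 81 counts a library), Ctbp2 (1 to 24) and Tshz3 in MGv (9 to 32).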
